A study of Homo sapiens with 8 samples.

Results

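The genes described are 10 that control glucose uptake and the use of glucose carbon: the transporters SLC2A1 and SLC2A3, the hexokinases HK1 and HK2, the bifunctional phosphofructokinase-2 enzymes PFKFB2, PFKFB3 and PFKFB4, and the pyruvate dehydrogenase kinases PDK1, PDK2 and PDK3. They were chosen by name, with earlier results of these data known. Counts of members called, beside shares of all genes, are therefore description and not a test of the set. Every probe set annotated with 1 of these symbols alone was taken. This gave 10 of the 19775 genes so annotated, and 26 of the 41091 single-symbol probe sets. The 4 groups were MDA-MB-231 with shXBP1, MDA-MB-231 with shCtrl, T47D with shXBP1 and T47D with shCtrl, at 2 arrays each, labelled as biological replicates. In all 4 groups the cells carried a lentivirus, were selected with puromycin at 2 ug/ml, and spent 24 h in 0.1% O2 in DMEM lacking glucose, so every group was under the combined stress and no unstressed cells were analysed here. shXBP1 is a hairpin against XBP1, which encodes a factor that activates genes when misfolded proteins build up in the endoplasmic reticulum, and shCtrl is the control hairpin. The labels give no hairpin sequence and do not say how many were used. Both cell lines are from human breast cancer: MDA-MB-231 is mesenchymal-like and lacks the oestrogen receptor, which the luminal line T47D expresses. The comparisons ask how expression of these genes depends on XBP1 under the stress, and whether the lines differ in it.

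Glucose enters cells through facilitative carriers of the SLC2A family and is trapped by hexokinases as glucose phosphate. PFKFB enzymes make and degrade the allosteric activator of phosphofructokinase, the committed step of glycolysis, and PDK enzymes phosphorylate pyruvate dehydrogenase and so hold pyruvate back from mitochondrial oxidation. Several of these genes, SLC2A1, SLC2A3, HK2, PFKFB3, PFKFB4 and PDK1 among them, are known targets of the hypoxia-inducible factor HIF1, which binds the letters RCGTG in DNA (R is A or G).

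Levels are the deposited log2 values, on which a step of 1 is a doubling in signal. Differences are shXBP1 minus shCtrl within a line unless stated. The standard error (SE) of each is limma's, p-values are adjusted by Benjamini-Hochberg over all 54613 probe sets tested, and a probe set was called changed at an adjusted p under 0.05. Each gene is described first by its brightest single-symbol probe set, and brightness is never compared between genes. XBP1 read 7.13 and 6.69 in MDA-MB-231 shXBP1 against 10.83 and 10.69 in shCtrl, and 7.52 and 7.16 in T47D shXBP1 against 12.41 and 12.56 in shCtrl. On its brightest probe set XBP1 fell by 3.85 (SE 0.18, adjusted p = 3.31e-05) in MDA-MB-231 and changed by -5.15 (SE 0.18, adjusted p = 1.03e-05) in T47D. A second, dimmer XBP1 probe set lay between 5.51 and 6.37 on the 8 arrays. It was not called, at 0.19 in MDA-MB-231 (adjusted p = 0.458) and -0.23 in T47D (adjusted p = 0.320). All 10 luminal markers were lower in MDA-MB-231 shCtrl than in T47D shCtrl, and 7 of 8 mesenchymal markers were higher. The remaining mesenchymal marker, FN1, was called lower, at 8.58 against 9.43. ESR1 was at 4.96 against 10.24 and VIM at 14.33 against 6.57. The mean of 5 leukocyte markers lay between 5.23 and 5.56 on every array, with CD79A the highest, up to 7.38. The mean of 6 fibroblast markers lay between 5.89 and 6.61. Of these, 2 were higher in MDA-MB-231 shCtrl than in T47D shCtrl and 0 lower. COL1A1 reached 10.2, and FAP averaged 7.82 in MDA-MB-231 shXBP1 against 6.22 in shCtrl. The difference between 3' and 5' probe sets of ACTB, a measure of RNA quality, averaged 0.999 on MDA-MB-231 shXBP1 and 1.26 on shCtrl arrays, and 1.12 on T47D shXBP1 and 1.002 on shCtrl arrays, and its part in the results was not tested. In bulk RNA, fewer cells that express a gene and less RNA per cell cannot be told apart.

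RefSeq promoter windows of 300 bases around a start site (GRCh38.p14) covered 8 of the 10 genes (not SLC2A3 and PFKFB2), in 19 windows. The array does not tell which start is used. The windows below are shown as examples of the motif in the HIF1 targets named above, 1 window a gene and, where a gene has 2, the one with more matches, so they were picked for holding a match. Capitals mark ACGTG and GCGTG, the spelled-out core of the HIF1 motif, on either strand, so that the reverse complement appears as CACGT. They are for SLC2A1 (chr1:42958819-42959118, minus strand), HK2 (the second of 2 windows, chr2:74834920-74835219, plus strand), PFKFB3 (the second of 2, chr10:6202682-6202981, plus strand), PFKFB4 (chr3:48556754-48557053, minus strand) and PDK1 (the second of 2, chr2:172555840-172556139, plus strand).
SLC2A1: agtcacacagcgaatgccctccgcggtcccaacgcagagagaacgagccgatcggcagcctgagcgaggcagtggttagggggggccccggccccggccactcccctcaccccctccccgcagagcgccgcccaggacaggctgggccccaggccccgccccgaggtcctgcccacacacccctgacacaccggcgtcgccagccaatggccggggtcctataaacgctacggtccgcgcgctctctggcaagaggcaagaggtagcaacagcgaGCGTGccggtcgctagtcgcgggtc
HK2: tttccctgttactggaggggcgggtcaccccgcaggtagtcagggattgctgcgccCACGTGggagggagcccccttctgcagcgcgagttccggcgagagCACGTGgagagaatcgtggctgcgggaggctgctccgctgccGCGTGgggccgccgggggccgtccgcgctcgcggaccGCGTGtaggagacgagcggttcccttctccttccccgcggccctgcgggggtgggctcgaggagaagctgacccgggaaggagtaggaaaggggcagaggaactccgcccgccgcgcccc
PFKFB3: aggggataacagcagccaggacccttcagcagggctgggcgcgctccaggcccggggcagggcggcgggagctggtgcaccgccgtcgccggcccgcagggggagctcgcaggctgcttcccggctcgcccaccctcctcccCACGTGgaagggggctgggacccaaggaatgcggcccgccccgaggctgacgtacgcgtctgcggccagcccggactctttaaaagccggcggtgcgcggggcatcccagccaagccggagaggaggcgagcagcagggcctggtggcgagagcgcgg
PFKFB4: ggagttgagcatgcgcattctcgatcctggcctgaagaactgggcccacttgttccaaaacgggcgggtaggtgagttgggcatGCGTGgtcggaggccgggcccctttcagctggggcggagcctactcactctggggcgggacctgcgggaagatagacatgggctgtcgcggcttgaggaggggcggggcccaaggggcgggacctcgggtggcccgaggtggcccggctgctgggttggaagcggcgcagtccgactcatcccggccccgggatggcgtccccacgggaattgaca
PDK1: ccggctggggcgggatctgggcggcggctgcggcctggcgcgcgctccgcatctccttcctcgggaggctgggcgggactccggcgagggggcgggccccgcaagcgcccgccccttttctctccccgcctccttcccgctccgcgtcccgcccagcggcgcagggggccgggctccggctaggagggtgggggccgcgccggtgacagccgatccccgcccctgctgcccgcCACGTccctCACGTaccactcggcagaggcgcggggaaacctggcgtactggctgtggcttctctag
In these windows of HK2 and PFKFB3 the capitals CACGTG hold ACGTG once on each strand, at 2 places in HK2 and 1 in PFKFB3. PDK1 has 2 matches close together, both on the other strand.

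ACGTG was found on either strand in 6 of the 19 windows and in 21.4% of the 35116 windows in the RefSeq table. By gene it was in 5 of 8, beside 24.9% of all genes there. GCGTG was found in 9 of the 19 and in 36.5% of all windows, and by gene in 7 of 8, beside 40.6%. The windows of HK1, PDK2 and PDK3 are counted here but not printed. One of the 2 motifs or the other was present in 11 of 19 member windows and in 48.4% of all windows. By gene this was 8 of 8, beside 52.4%, so such matches are common in windows of this length. HK1 has 7 of the 19 windows, and a gene with more windows has more chances to hold a match. TGACGTG, which holds ACGTG and is the core of the element that XBP1 binds, was found in 1 of the 19, the first HK2 window, and in 1.97% of all. A match is a description of letters only.

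After XBP1 knockdown in MDA-MB-231, brightest probe sets of 6 genes fell (SLC2A1, SLC2A3, HK2, PFKFB3, PDK1 and PDK3), that of HK1 rose, and those of PFKFB2, PFKFB4 and PDK2 did not pass. In T47D those of SLC2A1, SLC2A3, PFKFB2 and PDK2 fell, those of HK2, PFKFB4 and PDK1 rose, and those of HK1, PFKFB3 and PDK3 did not pass. On these probe sets both glucose transporter genes fell in both lines, while HK2 and PDK1 fell in MDA-MB-231 and rose in T47D. Other probe sets did not all follow: in MDA-MB-231 1 of SLC2A1 (0.20) and 1 of SLC2A3 (0.27) were uncalled with a positive sign, the SLC2A1 call there was lost with the mean of its probe sets (-0.35, adjusted p = 0.158), and the other 2 HK2 probe sets fell in T47D. On the brightest probe sets 7 of 10 genes were called in each line, beside 14.6% of all genes in MDA-MB-231 and 25.6% in T47D. Over all member probe sets, 10 of 26 were called in MDA-MB-231 (9 lower, 1 higher), where 13.9% of all probe sets tested were called (7.39% lower and 6.53% higher). In T47D 14 of 26 were called (9 lower, 5 higher), against 20.3% of all (9.27% lower and 11.0% higher). The member median was -0.35 in MDA-MB-231 and -0.14 in T47D, beside -0.00039 and -0.013 over all probe sets. Bright probe sets are called more often, and of those with a mean of at least 7 the members had 9 of 16 called in MDA-MB-231 (26.3% of all such probe sets) and 10 of 16 in T47D (40.9%). The T47D count over all 26 was 9 without T47D shXBP1 replicate 1, where 11.9% of all probe sets were called, and 9 without T47D shCtrl replicate 1, where 13.4% were, so the share over the whole array was lower in these fits as well.

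**Figure D1:**
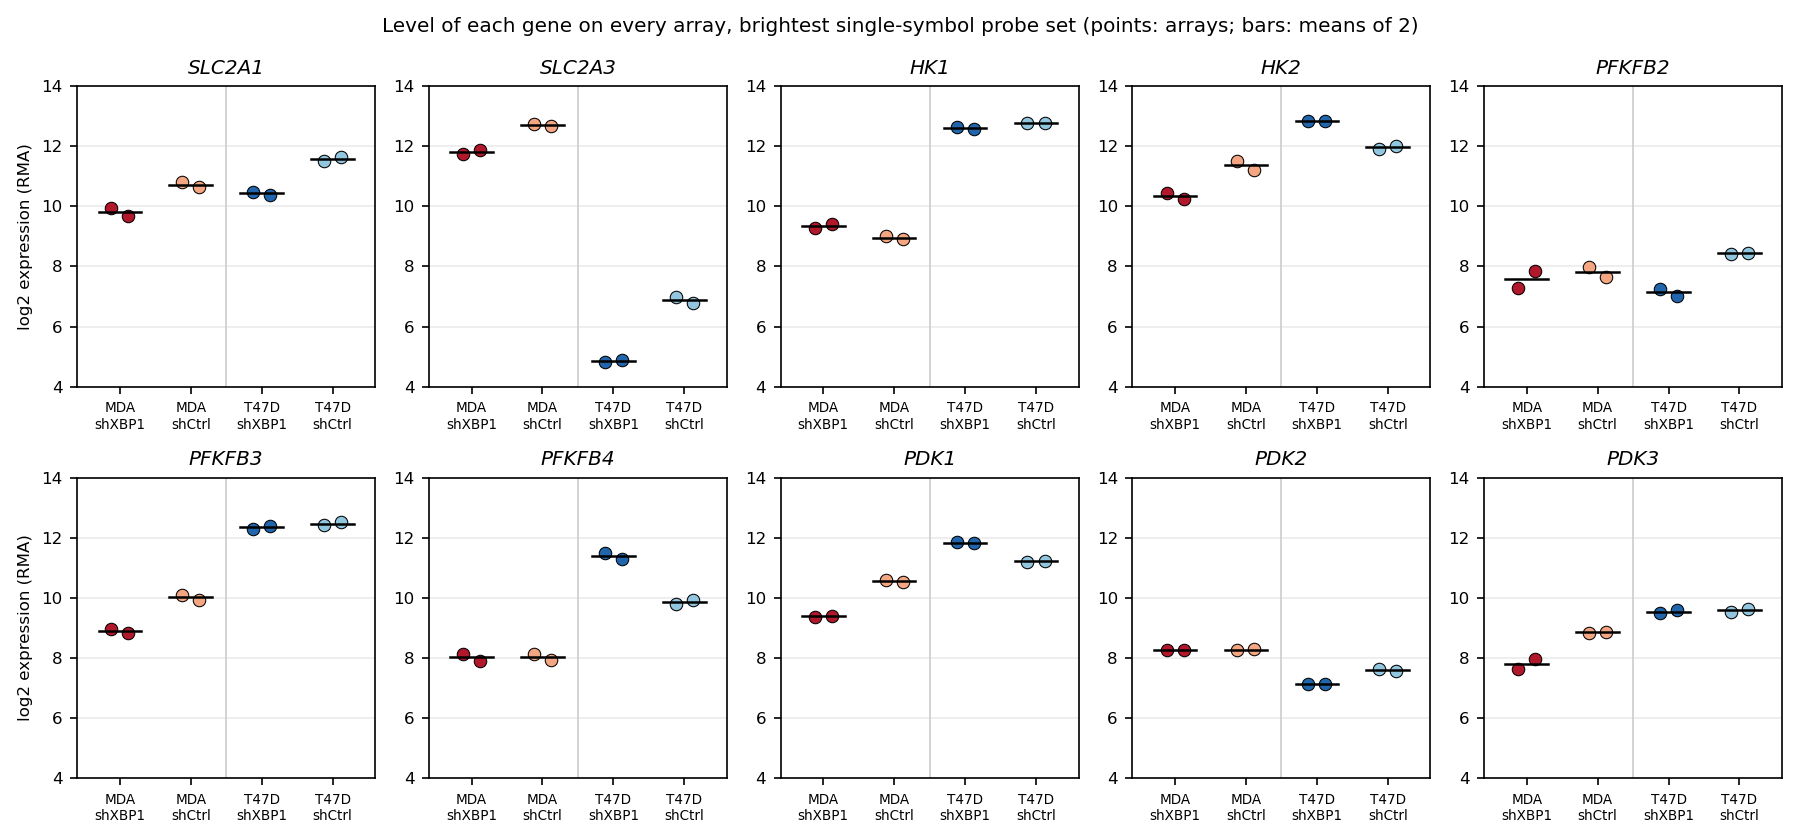
Level of the brightest probe set of each gene on every array (log2 expression, vertical axis, the same range in each panel) in the 4 groups on the horizontal axis, where MDA stands for MDA-MB-231; points are single arrays and bars the means of 2. SLC2A1 and SLC2A3 sit lower with shXBP1 than with shCtrl in both lines, HK2 and PDK1 sit lower in MDA-MB-231 and higher in T47D, and levels are not to be compared between panels.

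SLC2A1 encodes GLUT1, the widely expressed basal glucose carrier. Its brightest probe set read 9.94 and 9.68 in MDA-MB-231 shXBP1 against 10.81 and 10.63 in shCtrl, and 10.48 and 10.38 in T47D shXBP1 against 11.50 and 11.65 in shCtrl. In each line both shXBP1 arrays lay below both shCtrl arrays. SLC2A1 changed by -0.91 (SE 0.13, adjusted p = 0.00266) in MDA-MB-231, 1.88-fold lower, and by -1.15 (SE 0.13, adjusted p = 0.000499) in T47D, 2.21-fold lower. The effects of the lines differed by 0.24, which did not pass (95% interval -0.18 to 0.66, adjusted p = 0.448). The other SLC2A1 probe set was dim, between 4.67 and 5.72 on the 8 arrays. There SLC2A1 read 5.67 and 5.45 in MDA-MB-231 shXBP1 against 5.72 and 4.99 in shCtrl, groups that overlapped (0.20, adjusted p = 0.636), and in T47D it fell by 0.92 (adjusted p = 0.0182), a call lost without any 1 of the 4 T47D arrays at values from -1.04 to -0.79 (adjusted p from 0.0525 to 0.124). The difference between the effects on that probe set was 1.12 (adjusted p = 0.0390). That call did not hold in every fit that left out 1 array, where the values ran from 0.75 to 1.48. With the mean of both probe sets SLC2A1 was at -0.35 in MDA-MB-231 (adjusted p = 0.158).

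SLC2A3 encodes GLUT3, a carrier with high affinity for glucose. Its brightest probe set was at 11.74 and 11.88 in MDA-MB-231 shXBP1 against 12.73 and 12.66 in shCtrl, and at 4.84 and 4.89 in T47D shXBP1 against 6.97 and 6.77 in shCtrl. The groups did not overlap in either line, and T47D shXBP1 lay below 5.95, the median of all probe set means. The files hold no detection call, so whether so low a level stands above background is not known, and a difference measured against it is not an exact size. SLC2A3 changed by -0.88 (SE 0.11, adjusted p = 0.00160) in MDA-MB-231 and by -2.01 (SE 0.11, adjusted p = 2.97e-05) in T47D, where it fell further: the effects differed by 1.13 (SE 0.16, adjusted p = 0.00216), and by 1.08 (adjusted p = 0.00226) and 0.42 (adjusted p = 0.181) on the other SLC2A3 probe sets. All 3 SLC2A3 probe sets fell in T47D, the others at -0.81 (adjusted p = 0.00121) and -0.998 (adjusted p = 0.00111), and with the mean over the 3 the change was -1.27. They disagreed in MDA-MB-231, where the second SLC2A3 probe set read 10.86 and 10.81 with shXBP1 against 10.63 and 10.50 with shCtrl (0.27, adjusted p = 0.161), and the third fell by 0.58 (adjusted p = 0.0219). That fall was no longer called once shXBP1 replicate 1 (-0.50, adjusted p = 0.121) or shCtrl replicate 1 (-0.42, adjusted p = 0.112) of the line was left out. Over the 3 probe sets the mean change in MDA-MB-231 was -0.40 (adjusted p = 0.0187). A further 2 probe sets name SLC2A3 together with its close paralogue SLC2A14 and were not used, and how far the 3 used here also read that paralogue was not tested.

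HK2, the inducible hexokinase that docks on mitochondria, changed in opposite directions in the lines on its brightest probe set. Its brightest probe set read 10.43 and 10.25 in MDA-MB-231 shXBP1 against 11.51 and 11.20 in shCtrl, and 12.83 and 12.84 in T47D shXBP1 against 11.92 and 12.02 in shCtrl. Every shXBP1 array of MDA-MB-231 lay below, and every one of T47D above, the shCtrl arrays of its line. HK2 fell by 1.02 (SE 0.13, adjusted p = 0.00163) in MDA-MB-231 and rose by 0.86 (SE 0.13, adjusted p = 0.00214) in T47D, and the effects differed by -1.88 (SE 0.19, adjusted p = 0.000496) on this probe set. Both other HK2 probe sets ran lower in T47D. The dimmest, at 5.13 and 4.997 with shXBP1 against 6.15 and 6.10 with shCtrl, fell by 1.06 (adjusted p = 0.000546), and the other, at 6.45 and 6.498 with shXBP1 against 7.01 and 6.97 with shCtrl, fell by 0.52 (adjusted p = 0.0417), a call lost without any 1 of the T47D arrays (adjusted p from 0.128 to 0.179). In MDA-MB-231 these 2 HK2 probe sets were at 0.09 (adjusted p = 0.726) and -0.51 (adjusted p = 0.0579). The mean over the 3 HK2 probe sets therefore gave -0.24 in T47D (adjusted p = 0.0765), against the direction of the brightest, and -0.48 in MDA-MB-231 (adjusted p = 0.00713). Nor did these probe sets share the difference between the effects: on the dimmest HK2 probe set it was called with the opposite sign, at 1.15 (adjusted p = 0.00278), on the other it was 0.0064 (adjusted p = 0.989), and with the mean of the 3 it was -0.24 and no longer called (adjusted p = 0.194). Which HK2 transcripts each probe set reads was not examined here.

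HK1, the constitutive hexokinase, has 1 single-symbol probe set. It was at 9.27 and 9.42 in MDA-MB-231 shXBP1 against 9.01 and 8.91 in shCtrl, and at 12.64 and 12.58 in T47D shXBP1 against 12.79 and 12.78 in shCtrl. HK1 rose by 0.38 in MDA-MB-231 (SE 0.11, adjusted p = 0.0459). That call was lost when any 1 of the 8 arrays was left out, at values between 0.31 and 0.46 (adjusted p from 0.0674 to 0.166). In T47D HK1 was at -0.17 (95% interval -0.41 to 0.069, adjusted p = 0.334), and the difference between the effects was 0.56 (adjusted p = 0.0345), a call that held without MDA-MB-231 shXBP1 replicate 1 and was lost without any other array (0.48 to 0.61, adjusted p from 0.0524 to 0.124).

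The PFKFB genes each had their own pattern. PFKFB3, the isoenzyme with the highest kinase activity of the family, read 8.96 and 8.85 in MDA-MB-231 shXBP1 against 10.10 and 9.93 in shCtrl on its only probe set. It fell there by 1.11 (SE 0.11, adjusted p = 0.000582), or 2.16-fold. In T47D PFKFB3 was at 12.30 and 12.40 with shXBP1 against 12.41 and 12.51 with shCtrl, where the groups lay next to each other without overlapping (-0.11, 95% interval -0.37 to 0.14, adjusted p = 0.582). The effects of PFKFB3 differed by -0.995 (SE 0.16, adjusted p = 0.00362).

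PFKFB4, a hypoxia-induced isoenzyme, rose in T47D and did not pass in MDA-MB-231. On the brightest probe set it read 11.48 and 11.27 in T47D shXBP1 against 9.80 and 9.94 in shCtrl, a 2.84-fold rise (1.51, SE 0.14, adjusted p = 0.000182). In the other line PFKFB4 was at 8.14 and 7.89 in MDA-MB-231 with shXBP1 and 8.13 and 7.94 with shCtrl, with overlapping groups (-0.019, 95% interval -0.33 to 0.29, adjusted p = 0.954). The PFKFB4 effects differed by -1.52 (SE 0.19, adjusted p = 0.00130), and by -0.33 on the second probe set, which was not called (adjusted p = 0.193). Its second, dimmer probe set rose by 0.50 in T47D (adjusted p = 0.0130), a call lost without T47D shXBP1 replicate 1 (0.43, adjusted p = 0.107), shCtrl replicate 1 (0.52, adjusted p = 0.0538) or shCtrl replicate 2 (0.47, adjusted p = 0.0733). The mean of both PFKFB4 probe sets gave a rise of 1.001 in T47D (adjusted p = 0.000220).

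PFKFB2, the isoenzyme prominent in heart, fell in T47D on its brightest probe set, which read 7.26 and 7.03 with shXBP1 against 8.43 and 8.44 with shCtrl (-1.29, SE 0.20, adjusted p = 0.00230). In MDA-MB-231 that PFKFB2 probe set was at 7.29 and 7.86 with shXBP1 against 7.995 and 7.63 with shCtrl, groups that overlapped (-0.24, adjusted p = 0.504). The difference between the PFKFB2 effects was 1.04 (SE 0.28, adjusted p = 0.0350), and leaving out 1 array gave 0.76 to 1.33, with the call lost in 6 of the 8 such fits (adjusted p up to 0.125). It held only without MDA-MB-231 shXBP1 replicate 1 or shCtrl replicate 1. The 3 other PFKFB2 probe sets lay between 4.83 and 7.05 and none was called in either line. Over the 4 probe sets the mean change of PFKFB2 in T47D was -0.36 (adjusted p = 0.0372).

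**Figure D2:**
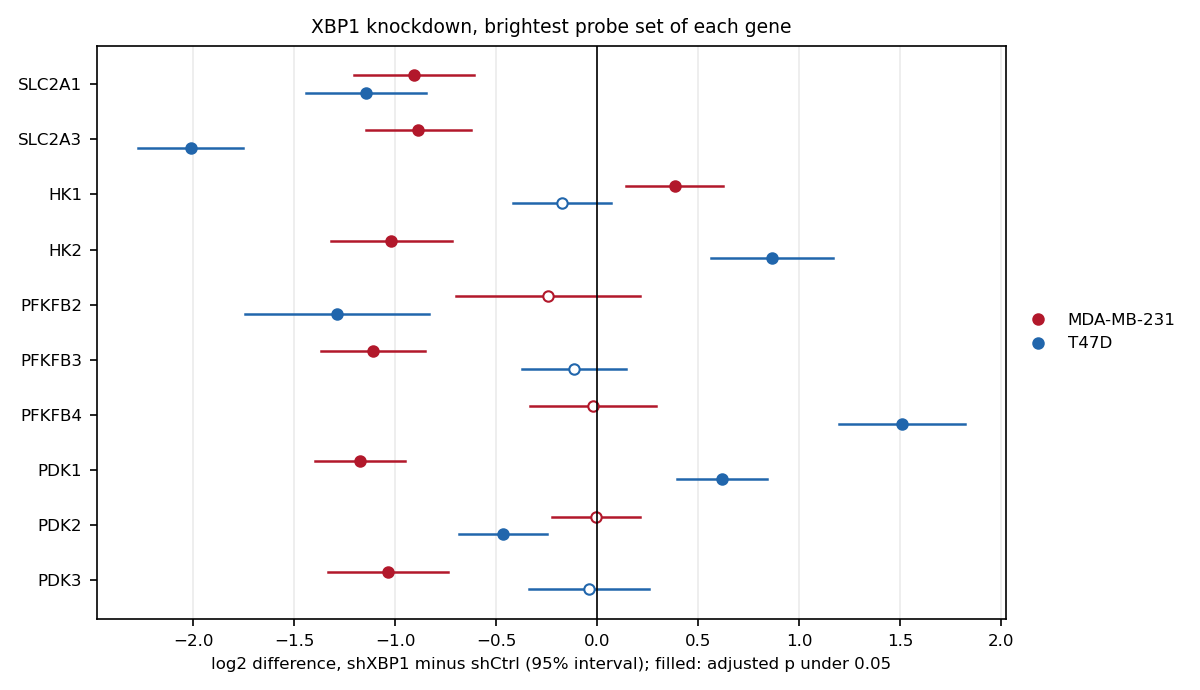
Log2 difference of shXBP1 minus shCtrl (horizontal axis, with 95% intervals) for the brightest probe set of each gene, MDA-MB-231 above T47D in each row; filled points have an adjusted p under 0.05. HK2 and PDK1 lie on opposite sides of 0 in the lines, while SLC2A1 and SLC2A3 lie below 0 in both.

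PDK1, the pyruvate dehydrogenase kinase induced by hypoxia, fell in MDA-MB-231 and rose in T47D on 2 of its 3 probe sets. The brightest was at 9.36 and 9.41 in MDA-MB-231 shXBP1 against 10.60 and 10.52 in shCtrl, and at 11.84 and 11.81 in T47D shXBP1 against 11.19 and 11.23 in shCtrl. All of the T47D arrays lay above all of those of MDA-MB-231, and with the knockdown PDK1 moved away from the other line in both. PDK1 fell by 1.17 (SE 0.10, adjusted p = 0.000275) in MDA-MB-231 and rose by 0.62 (SE 0.10, adjusted p = 0.00265) in T47D, and the effects differed by -1.79 (SE 0.14, adjusted p = 0.000210). On the second PDK1 probe set MDA-MB-231 read 6.99 and 7.14 with shXBP1 against 7.78 and 7.97 with shCtrl (-0.81, adjusted p = 0.00458). T47D read 8.83 and 8.60 with shXBP1 against 8.10 and 8.24 with shCtrl there (0.55, adjusted p = 0.0182). Its T47D call was lost without shXBP1 replicate 1 (0.43, adjusted p = 0.142) or shCtrl replicate 1 (0.48, adjusted p = 0.111). The third PDK1 probe set was dim (4.19 to 5.68) and was at -0.50 (adjusted p = 0.297) and 0.67 (adjusted p = 0.141).

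PDK3, a kinase of the same family that is also reported to respond to hypoxia, fell in MDA-MB-231. On the brightest of its 5 probe sets it read 7.65 and 7.98 in MDA-MB-231 shXBP1 against 8.85 and 8.85 in shCtrl, and 9.49 and 9.59 in T47D shXBP1 against 9.53 and 9.63 in shCtrl. PDK3 fell by 1.04 in MDA-MB-231 (SE 0.13, adjusted p = 0.00144) and was at -0.042 in T47D (95% interval -0.34 to 0.26, adjusted p = 0.883), where the groups overlapped. The effects differed by -0.99 (SE 0.18, adjusted p = 0.00700) on this probe set alone: on the other 4 PDK3 probe sets the difference ran from -0.67 to 0.063 and was not called, and the mean over the 5 gave -0.48 (adjusted p = 0.0574). In MDA-MB-231 a second PDK3 probe set, dimmer on average, also fell, by 0.68 (adjusted p = 0.0157), a call lost without shXBP1 replicate 1 (-0.48, adjusted p = 0.0697), shCtrl replicate 1 (-0.72, adjusted p = 0.0555) or shCtrl replicate 2 (-0.65, adjusted p = 0.0668) of that line. The other 3 PDK3 probe sets were not called, and one had the opposite sign, at 6.40 and 6.66 with shXBP1 against 6.24 and 6.01 with shCtrl (0.40, adjusted p = 0.109). Over the 5 probe sets PDK3 averaged -0.45 in MDA-MB-231 (adjusted p = 0.0271). In T47D 0 of the 5 were called by limma, and 1 had an unadjusted p under 0.05.

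PDK2, the most widely expressed kinase of the family, did not pass in MDA-MB-231, at 8.27 and 8.27 with shXBP1 and 8.26 and 8.29 with shCtrl (-0.0049, 95% interval -0.22 to 0.21, adjusted p = 0.984). In T47D PDK2 read 7.13 and 7.15 with shXBP1 against 7.62 and 7.58 with shCtrl and fell by 0.47 (SE 0.096, adjusted p = 0.00918). This call was lost without T47D shXBP1 replicate 1 (-0.46, adjusted p = 0.0688), shXBP1 replicate 2 (-0.48, adjusted p = 0.0599) or shCtrl replicate 1 (-0.45, adjusted p = 0.0569). The difference between the PDK2 effects, 0.46 (adjusted p = 0.0482), was lost when any 1 of the 8 arrays was left out (adjusted p from 0.0771 to 0.148). The second PDK2 probe set was almost as bright, with a mean over the 8 arrays of 7.81 against 7.82. It was called in neither line (0.29 in MDA-MB-231, adjusted p = 0.240, and -0.16 in T47D, adjusted p = 0.537). Its difference between the effects was 0.45 and was not called (adjusted p = 0.175).

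**Figure D3:**
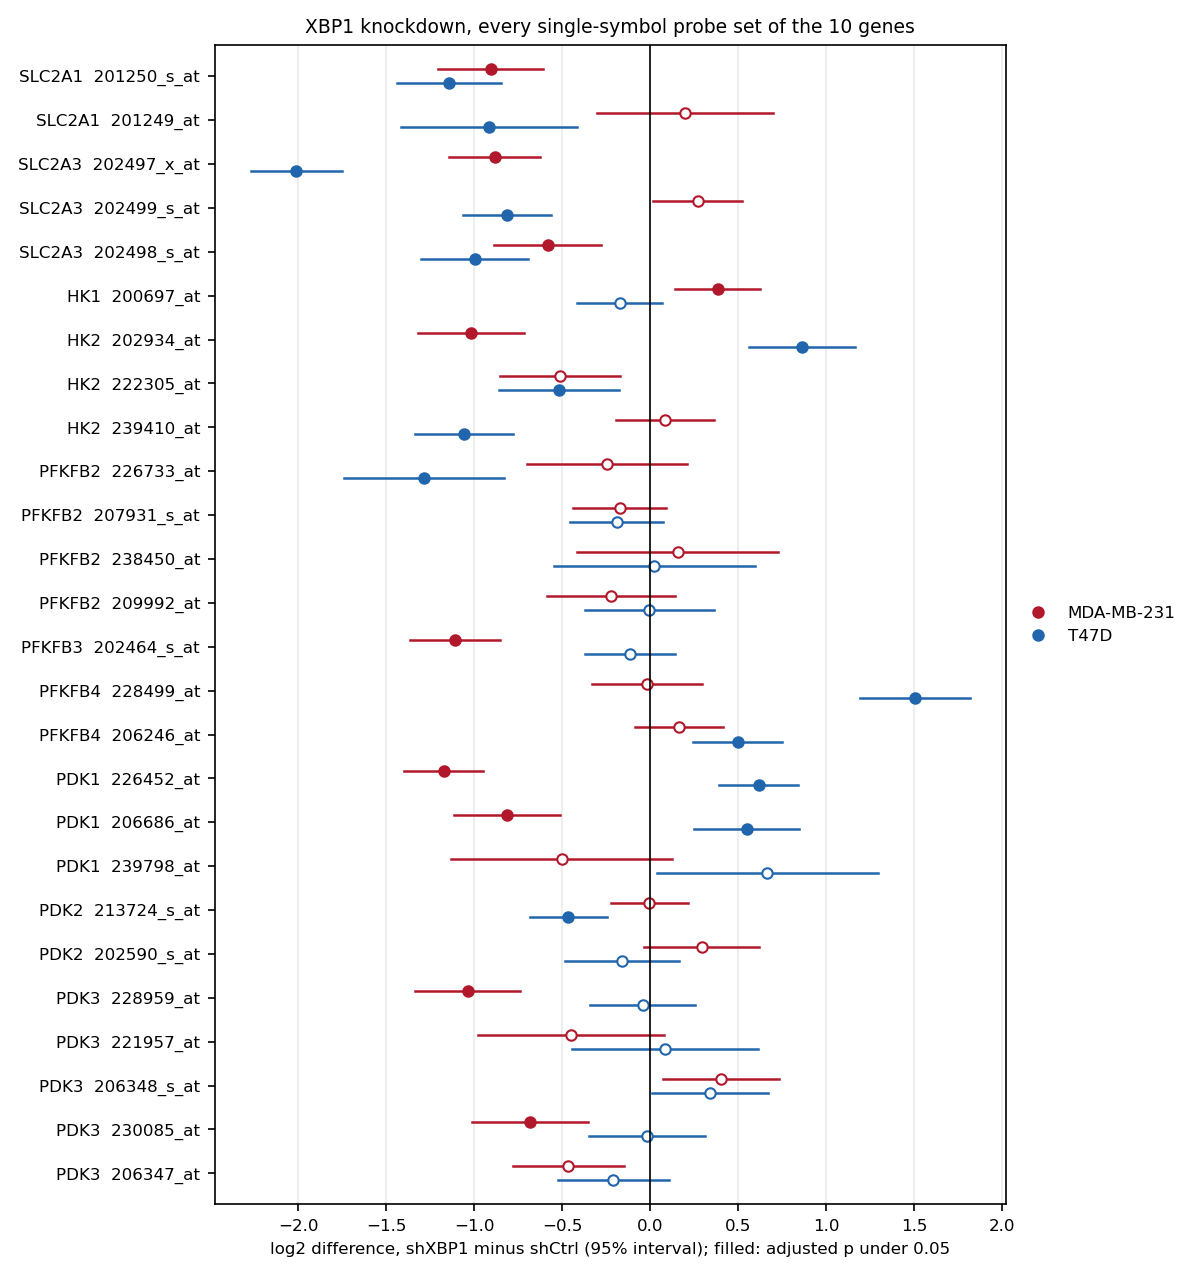
Log2 difference of shXBP1 minus shCtrl (horizontal axis, with 95% intervals) for each of the 26 single-symbol probe sets, named on the vertical axis with their genes, MDA-MB-231 above T47D in each row and filled points at an adjusted p under 0.05. The 3 PDK1 probe sets share the sign of the brightest in each line, whereas the HK2 probe sets lie on both sides of 0 in T47D.

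The test of the difference between the lines' knockdown effects (MDA-MB-231 minus T47D) called 13 of 26 member probe sets, 7 higher and 6 lower, beside 18.1% of all probe sets (8.03% higher and 10.1% lower). Among probe sets with a mean of at least 7 it called 11 of 16 members and 34.7% of all. Of the brightest probe sets 9 of 10 were called, SLC2A1 being the exception. On these the sign of the difference was negative, with the lower value in MDA-MB-231, for HK2, PFKFB3, PFKFB4, PDK1 and PDK3, and positive for SLC2A3, HK1, PFKFB2 and PDK2. Beside these 9 of 10, 21.2% of all genes were called on their brightest probe set. The negative differences ran from -1.88 in HK2 to -0.99 in PDK3. With 1 mean per gene over its probe sets 6 of 10 were called (24.0% of all genes), with the same signs, and the calls of HK2 (-0.24, adjusted p = 0.194), PDK3 (-0.48, adjusted p = 0.0574) and PFKFB2 (0.24, adjusted p = 0.303) were lost. Of the positive ones, those of HK1, PFKFB2 and PDK2 did not survive every removal of 1 array, and only that of SLC2A3 kept its call whichever array was left out (1.03 to 1.23, adjusted p up to 0.0140).

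The lines also differed in level. With shXBP1, MDA-MB-231 differed from T47D in 22 of the 26 probe sets (40.3% of all probe sets), 14 of them lower in MDA-MB-231 (19.9% of all) and 8 higher (20.4%). With shCtrl the count was 20 of 26 (39.5% of all), 14 lower (18.6%) and 6 higher (20.8%). Among probe sets with a mean of at least 7, 14 of 16 members were called with shXBP1 (70.2% of all such) and 15 of 16 with shCtrl (69.1%). On brightest probe sets 9 of 10 genes were called with shXBP1 (48.2% of all genes) and 10 of 10 with shCtrl (46.2%). SLC2A3 was higher in MDA-MB-231 than in T47D with shXBP1 by 6.95 on the brightest probe set (SE 0.11, adjusted p = 5.31e-09) and by 6.34 and 4.33 on the others, against T47D means of 4.86, 4.50 and 4.69. With shCtrl it was higher by 5.82 (SE 0.11, adjusted p = 8.73e-09), and by 5.25 and 3.92 on the other SLC2A3 probe sets, against T47D means of 6.87, 5.31 and 5.68. All but 1 of these T47D means lie below 5.95, so no fold is given for SLC2A3. HK1 ran the other way on its only probe set, 9.61-fold lower with shXBP1 (-3.27, SE 0.11, adjusted p = 8.06e-08) and 14.1-fold lower with shCtrl (-3.82, SE 0.11, adjusted p = 3.74e-08). PFKFB3 was 10.9-fold lower in MDA-MB-231 with shXBP1 and 5.46-fold lower with shCtrl (adjusted p = 8.58e-08 and 5.51e-07). PFKFB4 was 10.3-fold and 3.57-fold lower in these 2 comparisons on its brightest probe set (adjusted p = 2.60e-07 and 8.80e-06), and 1.98-fold and 1.57-fold lower on its second (adjusted p = 0.000101 and 0.00138).

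On the brightest probe sets the gaps between the lines in HK2, PDK1 and PDK3 were smaller with shCtrl than with shXBP1. HK2 was lower in MDA-MB-231 by 2.49 with shXBP1 (SE 0.13, adjusted p = 1.09e-06) and by 0.61 with shCtrl (SE 0.13, adjusted p = 0.00545). The other 2 HK2 probe sets were called the other way with shXBP1, at 1.07 (adjusted p = 0.000117) and 0.49 (adjusted p = 0.0296). With shCtrl they were at -0.077 (adjusted p = 0.674) and 0.48 (adjusted p = 0.0321). The calls at 0.49 and 0.48 did not hold in every fit that left out 1 array. Their values there ran from 0.32 to 0.65 with shXBP1 and from 0.31 to 0.65 with shCtrl. For PDK1 the difference was -2.44 with shXBP1 (SE 0.10, adjusted p = 2.49e-07) and -0.65 with shCtrl (SE 0.10, adjusted p = 0.000690). PDK3 was at -1.73 with shXBP1 and -0.73 with shCtrl (adjusted p = 9.04e-06 and 0.00186). Some other PDK3 probe sets had a wide gap with both hairpins: one was at -1.65 with shXBP1 and -1.71 with shCtrl, and another at -2.12 and -1.59. A further PDK3 probe set was at -1.47 with shXBP1 and -0.80 with shCtrl. The dimmest was called with neither hairpin, at -0.37 with shXBP1 (adjusted p = 0.0631) and -0.11 with shCtrl (adjusted p = 0.576). The change of these gaps is the same quantity as the difference of the knockdown effects given above. With the mean over probe sets the gap of HK2 was -0.31 with shXBP1 (adjusted p = 0.0147) and -0.069 with shCtrl (adjusted p = 0.560). That of PDK1 was -1.74 with shXBP1 (adjusted p = 4.18e-06) and -0.29 with shCtrl (adjusted p = 0.0719), and that of PDK3 was -1.47 with shXBP1 (adjusted p = 7.08e-06) and -0.99 with shCtrl (adjusted p = 8.50e-05).

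SLC2A1 was lower in MDA-MB-231 by 0.62 with shXBP1 (adjusted p = 0.00447) and by 0.86 with shCtrl (adjusted p = 0.000713), and its dim probe set was higher with shXBP1, by 0.76 (adjusted p = 0.0224), a call lost without shXBP1 replicate 1 of MDA-MB-231 (0.65, adjusted p = 0.129) or of T47D (0.63, adjusted p = 0.134). PDK2 was higher in MDA-MB-231 by 1.13 with shXBP1 (adjusted p = 1.79e-05) and by 0.67 with shCtrl (adjusted p = 0.000494). The second PDK2 probe set was lower with shCtrl, at -0.53 (adjusted p = 0.0164), a call lost without MDA-MB-231 shCtrl replicate 1 (-0.48, adjusted p = 0.0755) or T47D shCtrl replicate 1 (-0.40, adjusted p = 0.113), and the mean of both was at 0.071 with shCtrl (adjusted p = 0.577). On its brightest probe set PFKFB2 was at 0.42 with shXBP1 (adjusted p = 0.133) and at -0.62 with shCtrl (adjusted p = 0.0361), which was not called without MDA-MB-231 shCtrl replicate 2 (-0.44, adjusted p = 0.184) or either T47D shCtrl array (adjusted p = 0.113 and 0.119). The PFKFB2 probe sets disagreed between the lines. The dimmest was higher in MDA-MB-231 by 0.81 with shXBP1 (adjusted p = 0.00312) and by 1.03 with shCtrl (adjusted p = 0.000812). Another was lower by 0.75 with shXBP1 (adjusted p = 0.0411) and by 0.88 with shCtrl (adjusted p = 0.0207). Its T47D shCtrl arrays read 6.15 and 7.05, and neither call held in every fit that left out 1 array. Without 1 array its values ran from -0.85 to -0.65 with shXBP1 and from -1.33 to -0.44 with shCtrl. With the mean over the 4 PFKFB2 was at 0.084 with shXBP1 (adjusted p = 0.563) and -0.16 with shCtrl (adjusted p = 0.266).

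**Figure D4:**
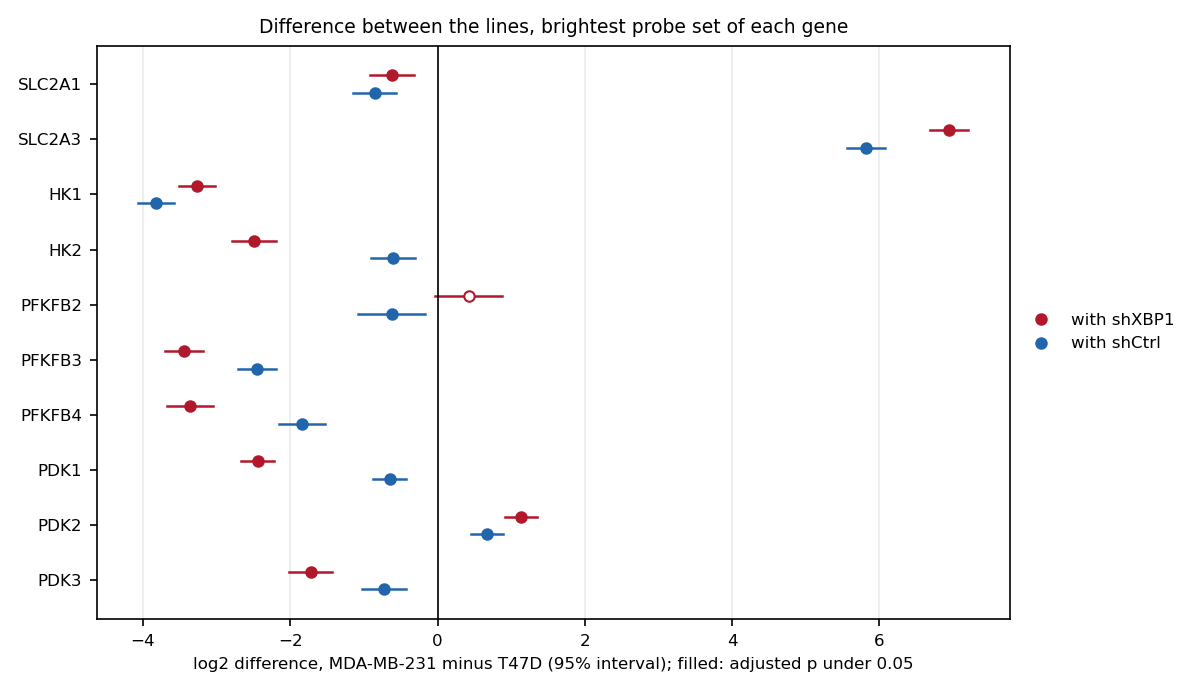
Log2 difference of MDA-MB-231 minus T47D (horizontal axis, with 95% intervals) for the brightest probe set of each gene, with shXBP1 above shCtrl in each row; filled points have an adjusted p under 0.05. SLC2A3 and PDK2 lie above 0 with both hairpins, and HK2, PFKFB4 and PDK1 lie further below 0 with shXBP1 than with shCtrl.

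The order of the 4 groups, given here for the brightest probe sets, depended on the probe set in several genes. SLC2A3 was highest in MDA-MB-231 shCtrl, then MDA-MB-231 shXBP1, T47D shCtrl and T47D shXBP1; the middle pair of SLC2A3, at 11.81 and 6.87, was not among the contrasts, and its second probe set had MDA-MB-231 shXBP1 (10.83) above shCtrl (10.56). For PDK1 and HK2 the order from high to low was T47D shXBP1, T47D shCtrl, MDA-MB-231 shCtrl and MDA-MB-231 shXBP1, and each neighbouring pair was called different. For PDK1 the middle pair was not called on the second probe set (adjusted p = 0.118) or with the mean over probe sets, and both other HK2 probe sets had T47D shXBP1 lowest, at 5.06 and 6.48. PFKFB4 had both T47D groups on top and MDA-MB-231 groups that were not called different, and PFKFB3 and PDK3 had T47D groups on top that were not called different. For SLC2A1 the middle pair, MDA-MB-231 shCtrl at 10.72 and T47D shXBP1 at 10.43, was not tested.

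A fixed list of 34 other genes of glucose carriage, phosphofructokinase and pyruvate entry had 31 with a single-symbol probe set. In MDA-MB-231 2 of the 31 rose and 2 fell, and in T47D 7 rose and 6 fell, on the brightest probe set of each gene, where 14.6% of all genes were called in MDA-MB-231 and 25.6% in T47D. The list's median was 0.013 in MDA-MB-231 and -0.023 in T47D, near the medians over all probe sets. Of 11 other carriers (SLC2A family members and SLC5A1, counted as a family and not by what each carries), 0 were called in MDA-MB-231 by limma. Several of them lay below 5.95 there, the median of all probe set means. SLC2A2 averaged 3.64 with shXBP1 and 3.56 with shCtrl in MDA-MB-231, and SLC2A10 averaged 3.68 and 4.07. Whether levels so low stand above background is not known. SLC2A11 (0.32, adjusted p = 0.0949) was the 1 carrier in that line with an unadjusted p under 0.05. In T47D 2 rose and 1 fell. SLC2A10 rose there by 1.52 (adjusted p = 0.00173), reading 8.57 and 8.51 with shXBP1 against 7.01 and 7.03 with shCtrl. The 3 phosphofructokinase-1 subunit genes (PFKL, PFKM and PFKP), whose enzyme the PFKFB product activates, were called in neither line.

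The list also covers pyruvate dehydrogenase, the enzyme that PDKs inhibit. In T47D 5 of 8 measured genes of the complex, its kinases and phosphatases fell and 2 rose, and in MDA-MB-231 2 fell and 1 rose, beside the same shares of 25.6% and 14.6% of all genes called. PDK4, the fasting-induced kinase of the PDK family, rose in both lines, reading 10.18 and 10.00 in MDA-MB-231 shXBP1 against 9.21 and 9.14 in shCtrl (0.92, SE 0.11, adjusted p = 0.00139) and 5.996 and 6.13 in T47D shXBP1 against 3.75 and 3.87 in shCtrl (2.25, SE 0.11, adjusted p = 2.31e-05). These T47D shCtrl values lie well below the median of all probe set means, so the T47D difference of PDK4 is not an exact size. PDP1, a phosphatase that reverses PDK action, fell by 0.46 in MDA-MB-231 (SE 0.099, adjusted p = 0.0174) and rose by 1.77 in T47D (SE 0.099, adjusted p = 2.86e-05), where it read 10.23 and 10.33 with shXBP1 against 8.49 and 8.54 with shCtrl. Its MDA-MB-231 call was lost without any 1 of that line's arrays (-0.47 to -0.45, adjusted p from 0.0537 to 0.0754). PDHX, which tethers a subunit of the complex, fell by 0.99 in MDA-MB-231 (adjusted p = 0.000818) and by 0.67 in T47D (adjusted p = 0.00310). The genes of the catalytic subunits PDHA1 (-0.80), PDHB (-0.57) and DLAT (-0.70) fell in T47D and were at -0.12, -0.22 and -0.24 in MDA-MB-231.

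TXNIP and ARRDC4, arrestin-like inhibitors of glucose uptake, were each called in 1 line. TXNIP rose by 0.49 in MDA-MB-231 (adjusted p = 0.0435), a call lost without any 1 array other than MDA-MB-231 shCtrl replicate 1 (adjusted p from 0.0630 to 0.185, and 0.34 without shCtrl replicate 2 of that line). ARRDC4 rose by 1.05 in T47D (adjusted p = 0.00212), at 7.50 and 7.59 with shXBP1 against 6.60 and 6.40 with shCtrl.

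**Figure D5:**
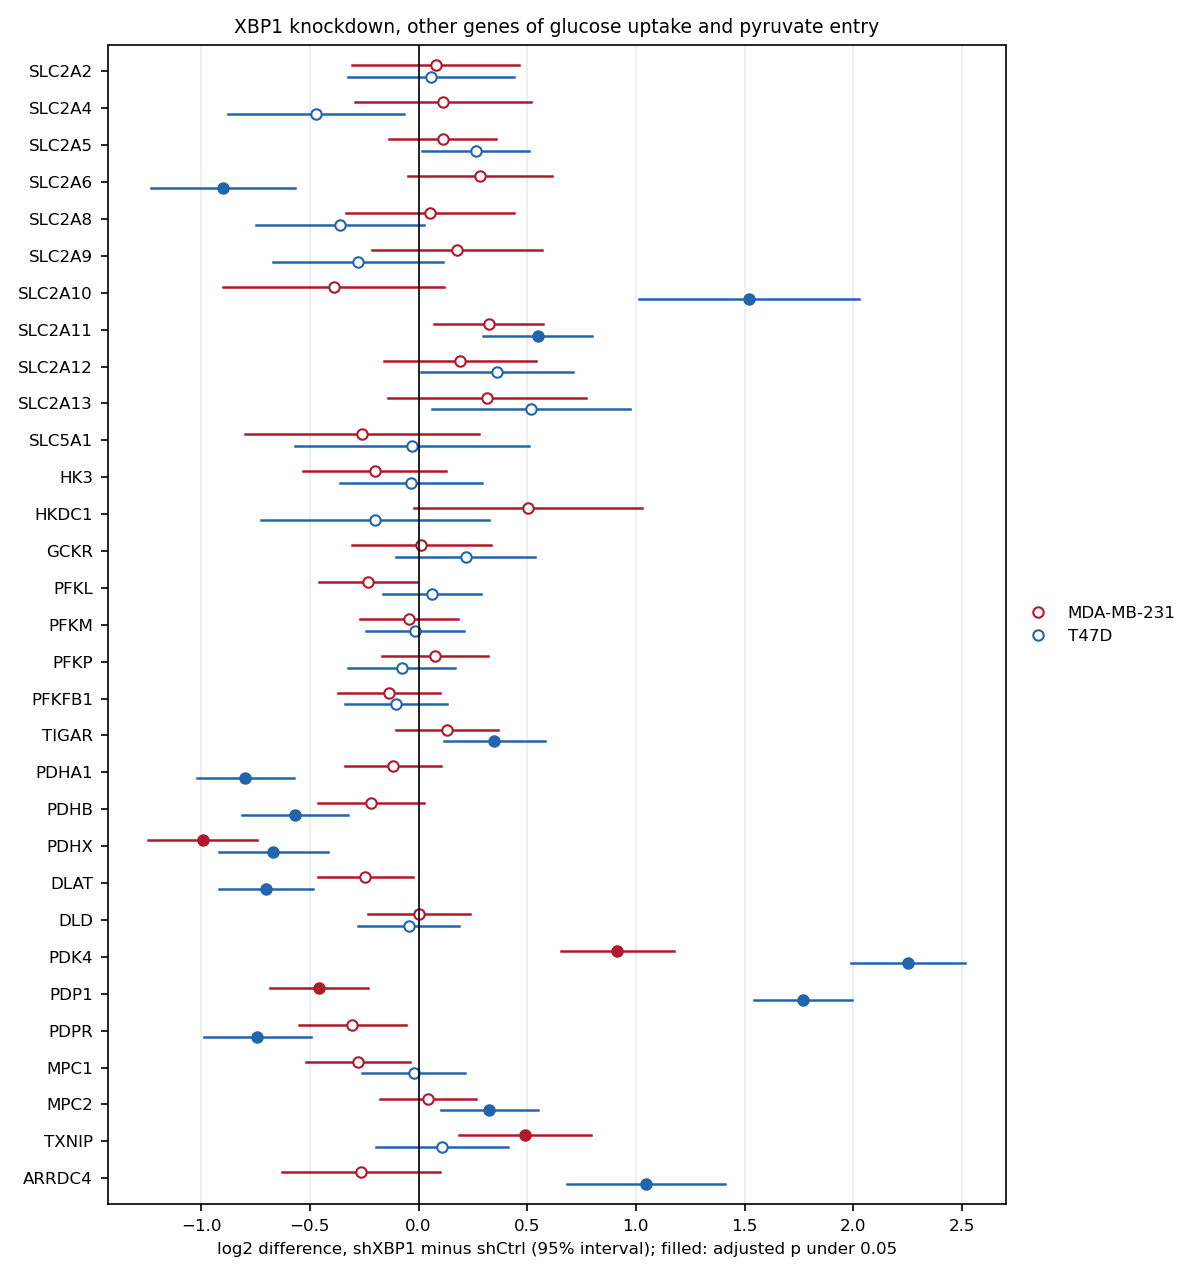
Log2 difference of shXBP1 minus shCtrl (horizontal axis, with 95% intervals) for the 31 measured genes of the list of other glucose and pyruvate genes, MDA-MB-231 above T47D in each row; filled points have an adjusted p under 0.05. PDK4 lies above 0 in both lines, PDP1 on opposite sides, and the phosphofructokinase-1 genes PFKL, PFKM and PFKP are uncalled in both.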

How the data were processed

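Total RNA from 8 samples was hybridised to 1-colour Affymetrix arrays, 1 per sample. The authors deposited log2 expression values per probe set (54675 in all), made with RMA in affy 1.30.0, per the submitters' processing notes. RMA summarises the probes of a set after quantile normalization, so differences are relative to the bulk of probe sets. The labels do not state which arrays entered one normalization. Control probe sets (62) were left out. The platform annotation gave 41091 probe sets 1 symbol, 1801 several and 11721 none.

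The 4 group means were fitted together in R 4.3.3 with limma 3.58.1 (lmFit, eBayes), with 4 residual and 8.32 total degrees of freedom. Contrasts were the knockdown in each line, their difference, and MDA-MB-231 against T47D with each hairpin. Tests were two-sided. With 2 arrays a group, the smallest p an exact permutation test allows is 0.333. Nothing says that replicates were separate infections, so p-values reflect only how far these samples spread, possibly for technical reasons. The number of arrays limits the precision (median SE 0.134 for a knockdown, 0.190 for the difference). No 2 arrays were identical. Differences between replicate 2 and replicate 1 were nearly uncorrelated between groups over all probe sets (correlations from -0.044 to 0.028). This cannot show whether samples of the same number were handled as pairs.

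The members, lists and named genes were chosen with earlier results of these data known. Named were XBP1, all 10 members, and up to 4 called genes per knockdown from the list of other genes with the largest changes; SLC2A11, PFKL, PFKM, PFKP, PDHA1, PDHB and DLAT were named after their values were seen. Alternatives were other filters, variance models, normalization, units, a replicate block, the line's arrays alone and leaving out each array. The analysis was tested on simulated data.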

Additional observations from a re-analysis of the deposited data

Results flagged for a closer look

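The knockdown effect (shXBP1 minus shCtrl) differed between the lines for 9 of the 10 genes by limma's test of the difference itself, MDA-MB-231 minus T47D, on the brightest probe set. On the log2 scale the difference was -1.88 for HK2 (adjusted p = 0.000496), -1.79 for PDK1 (adjusted p = 0.000210), -1.52 for PFKFB4 (adjusted p = 0.00130), -0.995 for PFKFB3 (adjusted p = 0.00362) and -0.99 for PDK3 (adjusted p = 0.00700). It was 1.13 for SLC2A3 (adjusted p = 0.00216), 1.04 for PFKFB2 (adjusted p = 0.0350), 0.56 for HK1 (adjusted p = 0.0345) and 0.46 for PDK2 (adjusted p = 0.0482). Over all probe sets 18.1% had such a difference, and on brightest probe sets 21.2% of all genes did. Other probe sets did not share all of these: for HK2 one was called with the opposite sign (1.15, adjusted p = 0.00278), and with the mean over the probe sets of a gene the calls of HK2 (-0.24, adjusted p = 0.194), PDK3 (-0.48, adjusted p = 0.0574) and PFKFB2 (0.24, adjusted p = 0.303) were lost. The calls of HK1, PFKFB2 and PDK2 did not survive every removal of 1 array, and were also lost with the replicate number as a block. Groups of 2 arrays are too small to look for single arrays that stand apart.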

How the results depend on the processing

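The 10 genes in 5 comparisons gave 50 values, of which 42 were called on the brightest probe set. Of these, 28 kept their call under every alternative run and 14 lost it under at least 1; of the 8 uncalled, 1 was called under an alternative. The count of member probe sets called was 6 (MDA-MB-231 knockdown), 6 (T47D knockdown), 6 (difference), 6 (lines with shCtrl) and 8 (lines with shXBP1) with 1 mean per gene, which leaves 10 units to count, where 16.5%, 27.4%, 24.0%, 48.3% and 50.2% of all genes were called. With the brightest probe set per gene it was 7 in T47D, 10 for the lines with shCtrl and 9 with shXBP1 (29.1%, 49.0% and 50.8% of all genes), and with probe sets under a mean of 7 left out it was 14 for the lines with shXBP1 (78.0% of all). Leaving out 1 array gave 7 to 10 in MDA-MB-231 (8.13% to 12.2% of all probe sets called), 9 to 15 in T47D (11.9% to 20.9%), 9 to 12 for the difference (11.6% to 17.5%), 17 to 20 for the lines with shCtrl (33.4% to 40.1%) and 18 to 22 with shXBP1 (32.6% to 40.7%).

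Signs turned with the mean over probe sets for HK2 in T47D (-0.24), SLC2A1 between the lines with shXBP1 (0.070), PFKFB4 (0.072) and PDK2 (0.14) in MDA-MB-231 and PDK3 in T47D (0.031), and the probe sets of these genes differ as described. Quantile normalization applied again turned PFKFB3 in T47D (3.05e-05) and PDK2 in MDA-MB-231 (0.015), both uncalled. Leaving out 1 array moved uncalled values across 0: PFKFB2 (-0.53 to 0.040), PFKFB4 (-0.14 to 0.11) and PDK2 (-0.023 to 0.013) in MDA-MB-231, and PDK3 in T47D (-0.094 to 0.0099). The cause was not tested.

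With the replicate number as a replicate block, the counts were 9 in MDA-MB-231, 13 in T47D, 10 for the difference, 19 for the lines with shCtrl and 22 with shXBP1, and 12.6%, 19.0%, 16.7%, 38.5% and 39.4% of all probe sets were called in that fit. Calls of brightest probe sets lost under the block were those of HK1 in MDA-MB-231, of the differences of HK1, PDK2 and PFKFB2, and of PFKFB2 between the lines with shCtrl. By the labels the samples share only a number.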

Other observations

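For each gene the 3 other genes with the most similar profile over the 8 arrays were taken, by the root mean square (RMS) difference of log2 values centred on their own means. The arrays share 4 groups, so likeness is mostly likeness of group means. For PDK1 these were OGA (RMS 0.053), YTHDC1 (0.102) and GMFB (0.108), and for HK2 they were GMFB (0.100), KDM3A (0.110) and OGA (0.111), so OGA and GMFB appear for both. PDK3 was closest to RUNDC1, ARHGAP5 and SCYL2 (0.101 to 0.122), PFKFB4 to DTNA, SYTL4 and GAB1 (0.113 to 0.175), and PFKFB3 to PACSIN1, SIAH2 and MED13L (0.178 to 0.205). SLC2A3, which had the widest range of the 10 over the arrays (7.89), was nearest to PDE3A, NPTX1 and VGLL3 (0.510 to 0.529). The RMS is not scaled to a gene's range, so its values are not to be compared between genes of unlike range. HK1 was nearest to MAPK13, TUSC3 and TM7SF2 (0.111 to 0.119), PFKFB2 to TNS3, NSD3 and JKAMP (0.137 to 0.160), and PDK2, which had the narrowest range of the 10 over the arrays, to RNF123, SCARB1 and a GAPDH probe set (0.034 to 0.041).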
